A study of Mus musculus with 10 samples.

Results

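The 4 nuclear factor I (NFI) genes of the mouse, Nfia, Nfib, Nfic and Nfix, were examined for chromatin accessibility in neural stem cell (NSC) cultures from the adult subependymal zone. Accessibility was read from ATAC-seq peak lists, in which a transposase cuts open DNA and a peak marks a stretch with more cuts than its surroundings. Every peak whose summit lay in the body of an NFI gene or within 100 kb of it was taken from the 10 lists. Peaks of different libraries that overlapped were merged, which left 1384 peaks in 212 regions, of 137454 regions in all. Regions are numbered along the chromosome within each gene's window. The windows held 67 regions at Nfia, 55 at Nfib, 44 at Nfic and 46 at Nfix. A peak in at least 2 libraries was found in 174 of the 212, and a peak in at least 5 in the 131 that were tested (32 at Nfia, 37 at Nfib, 30 at Nfic and 32 at Nfix), so that 81 regions stayed untested.

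NFI proteins are transcription factors that bind DNA as dimers of any 2 family members, at paired TTGGC sites facing each other. Nfia and Nfib act in the onset of glial fate during brain development, where Sox9 lies upstream and astrocyte genes such as Gfap lie downstream. Nfix is known for its part in keeping adult neural stem cells quiescent and in the maturation of neuroblasts, while Nfic is best known for tooth root formation.

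Cultures came from mice aged 10 weeks, either wild type (WT) or Cdkn1b knock-out (p27KO), in which the cell cycle inhibitor p27 is missing from every cell, on a C57BL/6J background per the study's methods. PRO cells were neurospheres kept for 3 days in medium with EGF (20 ng/ml) and FGF (10 ng/ml). DIFF cells had spent 2 days on Matrigel with FGF, followed by 24 h in 2% serum with no mitogen, so that substrate, serum and mitogens differed together. Each condition had 3 libraries in WT and 2 in p27KO, made from 50000 cells each, and whether replicates came from separate animals was not given in the sources used here, so p-values measure the spread between these libraries.

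The lists held 57534 to 91801 peaks, and WT DIFF replicate 3 stood apart with 88738 peaks, against 61783 and 57534 in the other WT DIFF libraries. The lists do not hold the number of reads behind each library, of which the study's methods give only an average, and a missing peak says that none was called at that depth. One free-text field names the p27KO libraries as WT. At the Cdkn1b start site (chr6:134919805-134920945) a peak was present in 3 of 3 WT libraries and 0 of 2 p27KO libraries of each condition, which follows the titles. Peaks on chromosome Y numbered 54 to 71 in WT and 26 to 58 in p27KO libraries, and their part in the genotype comparisons was not tested. All 9 neural stem and progenitor markers (Sox2, Nes and Vim among them) had a promoter peak in all 10 libraries, against 2 of 6 for microglia, 1 of 5 for endothelium, 2 of 5 for pericytes and fibroblasts and 3 of 5 for neurons. A promoter peak here lay within 3 kb of a start site. Those of Aif1 (microglia) and Col3a1 (fibroblasts), both counted, were 2723 and 2626 bp away. Among the microglia markers, 2 of 6 had no promoter peak in any library, P2ry12 was lower at DIFF in WT (−0.79, adjusted p = 0.0106) and in p27KO (−0.82, adjusted p = 0.0343; limma, as a difference of normal scores of the within-library rank), and the 3 others tested were not called. These 3 did not move alike. In WT and p27KO, Tmem119 changed by −0.66 and −0.96, Csf1r by 0.66 and 1.13, and Aif1 by 0.14 and −0.18. Of the other lists' tested promoters none was called in either genotype. The part of microglia in the NFI changes between PRO and DIFF was not tested.

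Nfib (ENSMUSG00000008575) spans chr4:82290173-82705750 and Nfia (ENSMUSG00000028565) chr4:97772734-98118874 (GRCm38). Nfix (ENSMUSG00000001911) spans chr8:84699876-84800344 and Nfic (ENSMUSG00000055053) chr10:81396186-81455635. Nfia and Nfib are long genes of 346.1 and 415.6 kb, and their bodies held many regions. With 41 regions in at least 2 libraries, the body of Nfib ranked 40 among 21938 protein-coding genes, and the body of Nfia ranked 55 with 38. The bodies of Nfix and Nfic, 100.5 and 59.4 kb long, held 16 and 12 regions and ranked 481 and 793. Per length the order was the opposite. Nfic had 20.2 regions per 100 kb of gene body, Nfix 15.9, Nfia 11 and Nfib 9.87.

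The surroundings differed too. Of the 174 regions in at least 2 libraries, 18 lay within 3 kb of an NFI start site that was also the nearest start, 88 elsewhere in an NFI gene body, 37 at a start site of another gene, 16 in the body of another gene and 15 between genes. Region 17 of Nfia, 691 bp from an Nfia start site but nearer to E130114P18Rik, was counted with the other genes' start sites. At Nfic and Nfix, whose windows hold 17 and 13 other coding genes, 18 and 17 regions were at other genes' start sites. At Nfia there were 2 and at Nfib 0. A change in a region therefore says nothing of which gene it acts on, most of all at Nfic and Nfix.

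The sequences below come from the GRCm38 reference genome (plus strand, 300 bases centred on the summit) and show regions that changed between PRO and DIFF. For the first 5, of 6 such regions with peaks in both conditions, the change was called in at least 1 genotype in every alternative analysis that tested them. Of these, region 35 of Nfia and region 41 of Nfic could be tested through their peaks in 1 condition, which favours a change. Region 31 of Nfix is shown as a region with a peak in every DIFF and no PRO library. The first pair lies 1.9 kb apart in an Nfib intron and moved in opposite directions. Capitals mark matches, on either strand, to a SOX site (ACAATG), an AP-1 site (TGANTCA), an E-box (CAGCTG), a single NFI site (TTGGCA) or a TEAD site (GGAATG).
Nfib region 15, lower at DIFF (chr4:82435756-82436055): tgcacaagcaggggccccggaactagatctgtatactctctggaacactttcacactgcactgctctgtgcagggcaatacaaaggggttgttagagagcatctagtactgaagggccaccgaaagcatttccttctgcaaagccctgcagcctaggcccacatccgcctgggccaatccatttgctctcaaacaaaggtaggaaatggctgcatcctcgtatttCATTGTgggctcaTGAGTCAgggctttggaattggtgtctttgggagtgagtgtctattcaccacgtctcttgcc
Nfib region 16, higher at DIFF (chr4:82437639-82437938): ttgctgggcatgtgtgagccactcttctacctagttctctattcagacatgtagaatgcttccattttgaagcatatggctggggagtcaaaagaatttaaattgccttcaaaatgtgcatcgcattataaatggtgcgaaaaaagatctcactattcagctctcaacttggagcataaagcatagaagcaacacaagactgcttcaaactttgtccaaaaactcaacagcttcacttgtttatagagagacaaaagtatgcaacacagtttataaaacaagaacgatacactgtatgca
Nfia region 35, higher at DIFF (chr4:97874972-97875271): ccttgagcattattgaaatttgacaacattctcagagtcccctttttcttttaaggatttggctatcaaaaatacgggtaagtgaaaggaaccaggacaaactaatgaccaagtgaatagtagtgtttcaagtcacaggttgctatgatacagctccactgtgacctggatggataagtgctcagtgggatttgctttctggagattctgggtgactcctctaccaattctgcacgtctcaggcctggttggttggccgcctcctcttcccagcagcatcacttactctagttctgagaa
Nfic region 29, higher at DIFF (chr10:81435536-81435835): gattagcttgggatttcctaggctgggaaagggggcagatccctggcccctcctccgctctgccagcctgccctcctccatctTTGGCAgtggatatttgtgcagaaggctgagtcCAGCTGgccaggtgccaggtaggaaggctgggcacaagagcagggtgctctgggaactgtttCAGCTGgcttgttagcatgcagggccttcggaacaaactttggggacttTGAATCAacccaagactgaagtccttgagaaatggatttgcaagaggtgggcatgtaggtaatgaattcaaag
Nfic region 41, lower at DIFF (chr10:81526851-81527150): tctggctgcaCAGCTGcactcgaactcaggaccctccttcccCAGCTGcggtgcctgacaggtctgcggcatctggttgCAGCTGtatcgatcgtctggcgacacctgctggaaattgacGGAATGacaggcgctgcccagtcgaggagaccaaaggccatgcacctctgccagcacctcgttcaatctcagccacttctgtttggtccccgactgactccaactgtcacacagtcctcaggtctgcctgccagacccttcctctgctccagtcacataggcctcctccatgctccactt
Nfix region 31, peaks at DIFF alone (chr8:84788933-84789232): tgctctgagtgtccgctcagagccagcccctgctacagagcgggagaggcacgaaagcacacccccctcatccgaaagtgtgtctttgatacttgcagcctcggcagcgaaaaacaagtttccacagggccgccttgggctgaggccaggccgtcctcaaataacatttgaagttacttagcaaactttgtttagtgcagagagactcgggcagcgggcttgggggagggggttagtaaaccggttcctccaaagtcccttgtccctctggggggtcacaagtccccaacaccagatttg
Region 15 of Nfib held a TGAGTCA and, 7 bases before it, a CATTGT. Region 41 of Nfic held 3 copies of CAGCTG and 1 of GGAATG, and region 29 of Nfic held 2 of CAGCTG, 1 of TTGGCA and 1 of TGAATCA. The other 3 windows held none of the letters searched, which says nothing of the factors themselves.

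Levels are given as percentiles of fold enrichment, the ratio of the signal at a summit to the local background, among all peaks of the same list (100 is the strongest peak). Where several peaks of a library fell into a region, the strongest was used. Over all 10 libraries, the start-site region with the highest mean was region 12 of Nfia (chr4:97771883-97772634, 389 bp before the first start site), with a percentile of 79.3 ± 5.38 (SD over 10 libraries). Region 28 of Nfix (chr8:84773851-84774902, in the 5′ part of an inner transcript) reached 71.5 ± 7.06, region 18 of Nfic (chr10:81407457-81408065, at an inner start site) 64.4 ± 20.2 and region 26 of Nfib (chr4:82505268-82507478, at inner start sites) 60.8 ± 6.96. Neighbours in this order overlapped. Nfia was above Nfix in 7 of 10 libraries, Nfix above Nfic in 5 and Nfic above Nfib in 6. The order was not the same in both conditions. In WT PRO the Nfic region was the highest of the 4, at a mean of 81.7 against 75.2 for Nfia, 65.0 for Nfix and 54.4 for Nfib, and in WT DIFF it was the lowest, at 45.5. The 5 libraries in which Nfix was above Nfic were the 5 DIFF libraries.

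At most NFI start sites no change was called. Of the 16 tested regions within 3 kb of an NFI start site, 1 was called in WT and 0 in p27KO. Over all tested regions 9.15% were higher and 10.1% lower in WT, and 5.83% and 6.48% in p27KO. Away from start sites the WT shares were higher (10.9% and 12.4%). In WT, 5747 of the 6464 higher and 6573 of the 7104 lower regions lay over 3 kb from a coding start site. In p27KO it was 3751 of 4115 and 4282 of 4580, and among all tested regions 52863 of 70627. Shares near start sites were thus lower than those over all regions, which are too high a measure for the 16. Whether NFI start sites differ from others was not tested. At region 12 of Nfia the percentiles were 73.4, 71.5 and 80.6 in WT PRO and 76.0, 81.1 and 81.1 in WT DIFF. In p27KO they were 84.6 and 75.9 in PRO and 89.7 and 79.1 in DIFF. The groups overlapped in both genotypes, and the change, a difference of normal scores of the within-library rank, was 0.24 ± 0.20 (SE), adjusted p = 0.444 in WT (95% interval −0.20 to 0.68) and 0.33 ± 0.25 (SE), adjusted p = 0.447 in p27KO. At region 26 of Nfib the change was 0.32 ± 0.18 (SE), adjusted p = 0.26 in WT and 0.39 ± 0.23 (SE), adjusted p = 0.314 in p27KO. At region 28 of Nfix it was 0.37 ± 0.20 (SE), adjusted p = 0.22 and −0.04 ± 0.24 (SE), adjusted p = 0.948. The first start site of Nfib, at region 49 (chr4:82704086-82705731), missed the threshold in both genotypes, with 0.60 ± 0.20 (SE), adjusted p = 0.0538 in WT and 0.73 ± 0.24 (SE), adjusted p = 0.0744 in p27KO, and passed it in WT under 5 of 19 alternatives.

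The start site called in WT was region 18 of Nfic, in front of a transcript that starts within the gene. Its percentiles were 88.0, 79.9 and 77.0 in WT PRO and 35.6, 30.2 and 70.7 in WT DIFF, with the value nearest to PRO in the long list of replicate 3. It fell by 0.82 ± 0.20 (SE; limma, adjusted p = 0.0136), a call lost without WT PRO replicate 1 or WT DIFF replicate 1 or 2 (adjusted p of up to 0.0597). In p27KO the values were 78.0 and 79.1 in PRO and 52.0 and 53.8 in DIFF. These groups did not overlap either, with a change of −0.54 ± 0.24 (SE), adjusted p = 0.189. The inner start site of Nfia, at region 36 (chr4:97880228-97880859), had 44.1, 48.0 and 38.8 in WT PRO against no peak, 2.16 and no peak in WT DIFF, and 40.7 and 54.3 in p27KO PRO against no peak in both p27KO DIFF libraries. Its change missed the threshold, with −0.86 ± 0.28 (SE), adjusted p = 0.0521 in WT and −1.0 ± 0.34 (SE), adjusted p = 0.0853 in p27KO. Peaks in every PRO library were enough for region 36 to be tested, which favours a fall. It was called in WT without WT DIFF replicate 2, the library with its only DIFF peak. That fit left peaks at PRO alone, so its call supports nothing. The regions nearest to the other start sites were region 16 of Nfia, region 26 of Nfic and regions 33 and 34 of Nfix, at mean percentiles of 27.7, 31.8, 13.3 and 32.0, with WT changes between −0.36 and 0.35 and no call in either genotype. Region 16 of Nfia lies 315 bp from the start of E130114P18Rik, so that its peak may belong to either gene. No tested region lay within 3 kb of the Nfic start sites at 81455635 and from 81427114 to 81427187.

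**Figure D1:**
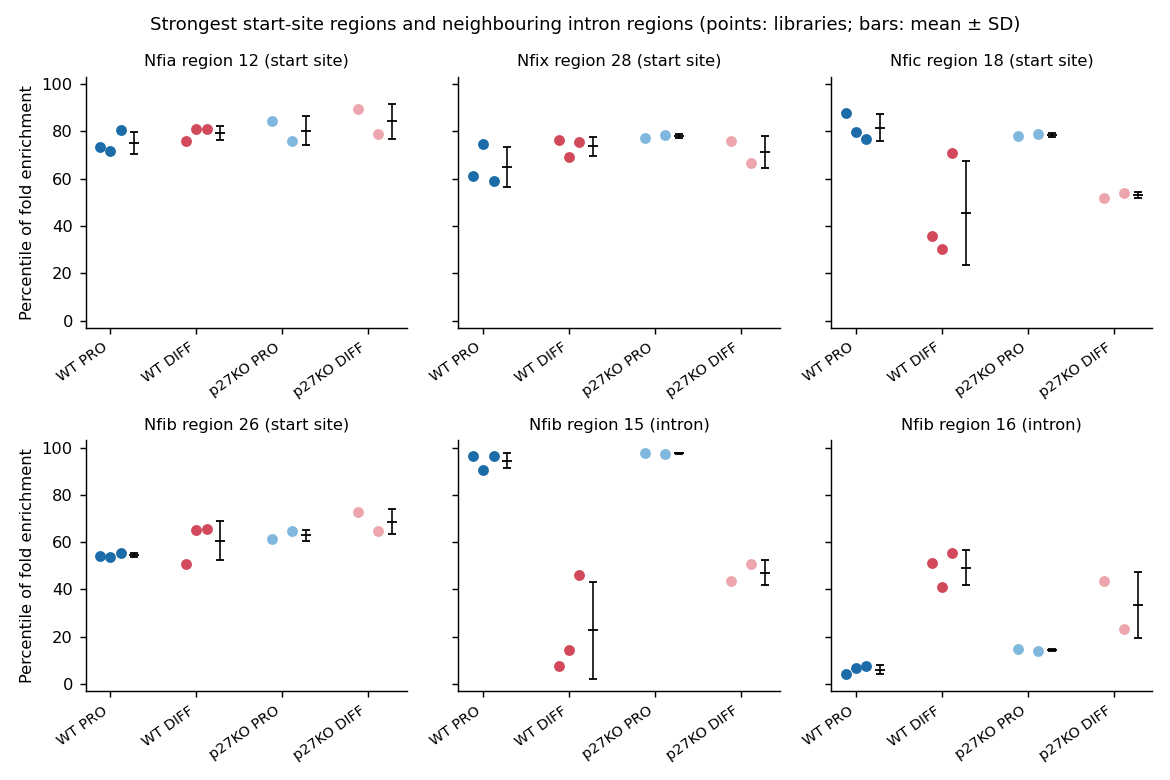
Percentile of fold enrichment within each library's list (y axis) by group (x axis) for the strongest start-site region of each NFI gene and for 2 neighbouring intron regions of Nfib; points are libraries, bars are mean ± SD (3 WT and 2 p27KO libraries per condition) and a library without a peak is drawn at 0. Region 15 of Nfib lies between 90.7 and 97.6 in the PRO libraries and between 7.6 and 50.8 in the DIFF libraries, while region 16 moves the other way.

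At mitogen withdrawal in WT, more NFI regions rose than fell. Of the 131 tested, 21 were higher and 7 were lower at DIFF (limma, Benjamini-Hochberg adjusted p below 0.05 over all 70627 regions tested). That is 16% higher and 5.34% lower, where all tested regions gave 9.15% and 10.1%. More than 3 kb from any coding start site, 19 of 83 NFI regions were higher and 5 lower (22.9% and 6.02%), against 10.9% and 12.4% of all such regions. A region that has peaks mainly in 1 condition can pass the filter through that condition, and 12 of the 28 calls were in regions that lacked a peak in at least 1 library. In 5 of them (regions 21, 37 and 52 of Nfia and 31 and 35 of Nfix) all peaks were in 1 condition, which is what let them be tested, so that they had to differ and their p-values support nothing. Without the 7 tested regions of that kind, 17 of 124 were higher and 6 lower, and the share over all regions was not counted with the same exclusion. Among the 80 NFI regions with a peak in all 10 libraries, 12 were higher and 4 lower (15% and 5.0%), against 6.24% and 4.98% of all such regions. The median change was 0.08 over the 131 regions and 0.03 over all tested. Rises outnumbered falls with each library left out in turn, with counts from 7 (without WT DIFF replicate 2) to 18 higher and from 2 (without WT PRO replicate 1) to 7 lower. By gene, 7 regions rose and 3 fell at Nfia, 5 and 2 at Nfib, 3 and 2 at Nfic, and 6 and 0 at Nfix. Whether the genes differ in this was not tested.

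**Figure D2:**
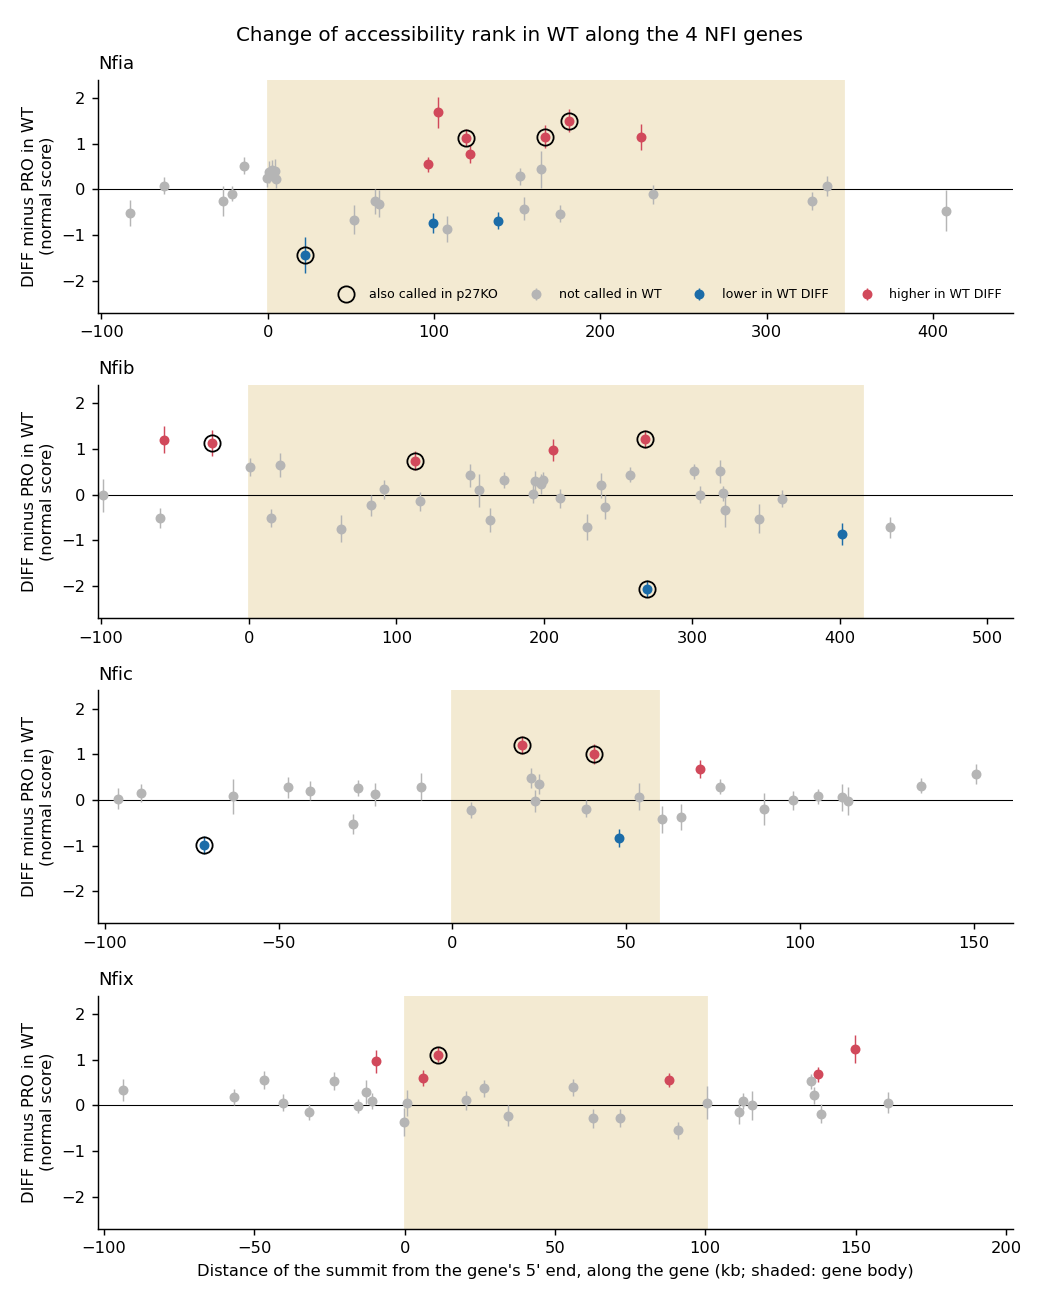
DIFF minus PRO change of the normal score in WT (y axis, points with SE) along each NFI gene, at the distance of the region's summit from the 5′ end of the gene (x axis, kb; shaded, gene body); red regions were higher and blue regions lower at DIFF, grey regions were not called, and rings mark regions also called in p27KO. The largest fall, in the Nfib body, stands next to a region that rose.

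At Nfib, the largest change of any NFI region was a fall in an intron. Region 15 (chr4:82435429-82436322) lies 69.4 kb past the nearest Nfib start site. Its percentiles were 96.4, 90.7 and 96.5 in WT PRO and 7.56, 14.3 and 46.1 in WT DIFF. In p27KO they were 97.6 and 97.4 in PRO and 43.4 and 50.8 in DIFF. It was thus near the top of every PRO list and in the middle or lower part of every DIFF list, with no overlap of the groups. As fold enrichment, WT PRO had 15, 13.0 and 14.7 and WT DIFF 3.14, 3.47 and 4.82. The change was −2.05 ± 0.19 (SE), adjusted p = 9.2e-05 in WT and −1.92 ± 0.23 (SE), adjusted p = 6.8e-04 in p27KO (limma), and it was called in both genotypes under all 19 alternatives (highest adjusted p 0.00149 in WT and 0.0137 in p27KO).

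The neighbouring region 16 (chr4:82437590-82438463) moved the other way. Its percentiles were 3.98, 6.63 and 7.44 in WT PRO and 51.2, 41.1 and 55.4 in WT DIFF. In p27KO they were 14.8 and 14.0 in PRO and 43.4 and 23.4 in DIFF. Neither genotype's groups overlapped, and the rise was 1.22 ± 0.20 (SE), adjusted p = 0.00144 in WT and 0.83 ± 0.24 (SE), adjusted p = 0.0441 in p27KO. In WT this rise was called under all 19 alternatives.

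Upstream of Nfib, 2 regions between genes rose. Region 50 (chr4:82730104-82730771), 24.7 kb before the first start site, was strong already at PRO. It had 93.5, 76.9 and 72.8 in WT PRO and 98.5, 93.4 and 98.9 in WT DIFF, where the groups overlapped slightly, and 83.4 and 70.2 in p27KO PRO against 98.3 and 96.7 in p27KO DIFF. The rise was 1.13 ± 0.28 (SE), adjusted p = 0.0149 in WT and 1.40 ± 0.34 (SE), adjusted p = 0.0206 in p27KO, and each call was lost in 4 of the 10 fits without 1 library (WT PRO 2 or 3 or WT DIFF 1 or 3 in WT, and any p27KO library in p27KO), at adjusted p of up to 0.0659 in WT and 0.161 in p27KO. Region 53 (chr4:82762417-82762743), 56.9 kb before that start site, had no peak, 15.5 and no peak in WT PRO and 44.1, 46.3 and 27.9 in WT DIFF, a rise of 1.21 ± 0.30 (SE), adjusted p = 0.0158, which was lost without WT PRO replicate 1 or 3 or WT DIFF replicate 1 or 2. Peaks in every DIFF library were enough for region 53 to be tested, which favours a rise, and the alternatives do not remove this. A second fall was at region 4 (chr4:82303512-82304986), in the last part of the gene, with 90.6, 92.3 and 88.9 in WT PRO and 77.9, 27.1 and 76.5 in WT DIFF (−0.86 ± 0.25 (SE), adjusted p = 0.0313). Here WT DIFF replicate 2 was far below the other DIFF libraries, and the call was lost when any of the WT PRO libraries or WT DIFF replicate 2 or 3 was left out. The strongest Nfib region was region 47 (chr4:82690062-82690835), 15.3 kb inside the gene, at a mean percentile of 95.9 and with no call.

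At Nfia, all 10 regions called in WT lay inside the gene body, and 7 of them were higher at DIFF. Region 35 (chr4:97874836-97875495), 5.0 kb before the inner start site, rose most. It had no peak, 3.53 and 22.9 in WT PRO and 65.1, 65.7 and 68.3 in WT DIFF, with a change of 1.69 ± 0.35 (SE), adjusted p = 0.00627, called under all 18 alternatives that tested it. Its peaks in every DIFF library were enough for it to be tested, which favours a rise, and the alternatives do not remove this. In p27KO PRO the values were 42.6 and no peak and in p27KO DIFF 76.1 and 41.1, so that these groups overlapped and the change of 1.38 ± 0.43 (SE), adjusted p = 0.058 was not called.

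Regions 37 and 52 opened in both genotypes, with no peak in any PRO library and a peak in every DIFF library. Region 52 (chr4:97953936-97954259) had 56.0, 10.6 and 49.8 in WT DIFF and 6.22 and 52.2 in p27KO DIFF, a change of 1.5 ± 0.25 (SE) in WT and 1.44 ± 0.30 (SE) in p27KO. Region 37 (chr4:97891654-97892178) had 7.38, 18.9 and 36.7 in WT DIFF and 34.9 and 23.4 in p27KO DIFF. Both had 5 peaks, the fewest a tested region can have, and passed the filter through DIFF alone, so these values are a description. Region 47 (chr4:97939209-97939832) had no peak in WT PRO and 40.7, no peak and 46.2 in WT DIFF (1.16 ± 0.26 (SE), adjusted p = 0.0101). The WT groups overlapped through the DIFF library without a peak, and without WT PRO replicate 2 the call was lost (adjusted p = 0.05). In p27KO it had 17.4 and no peak in PRO and 24.4 and 47.6 in DIFF (1.19 ± 0.32 (SE), adjusted p = 0.0333). Region 47 too had 5 peaks, and all but 1 were at DIFF. It thus passed the filter mainly through DIFF, which favours a rise in both genotypes.

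Falls at Nfia were fewer. Region 21 (chr4:97794865-97795172), 17.2 kb past the second group of start sites, closed in both genotypes. It had 87.6, 52.5 and 25.9 in WT PRO, 62.1 and 78.7 in p27KO PRO and no peak in any DIFF library. The levels at PRO were widely spread, and the change was −1.44 ± 0.39 (SE) in WT and −1.70 ± 0.47 (SE) in p27KO. With 5 peaks, all at PRO, it passed the filter through PRO alone, and these values too are a description. Region 40 (chr4:97910289-97911304), whose summit lies in an exon, was strong in every library. It had 96.7, 93.3 and 95.5 in WT PRO and 80.3, 84.8 and 81.6 in WT DIFF, a fall of 0.68 ± 0.19 (SE, adjusted p = 0.0268) that 4 of 10 fits without 1 library lost (WT PRO 1 or 3, WT DIFF 1 or 3). In p27KO its values were 94.1 and 96.6 in PRO and 81.2 and 81.6 in DIFF, nearly the levels of WT, with a change of −0.70 ± 0.23 (SE), adjusted p = 0.0756. Region 34 (chr4:97871715-97872384) had 41.9, 44.4 and 50.5 in WT PRO and 3.8, no peak and 12 in WT DIFF (−0.73 ± 0.21 (SE), adjusted p = 0.0356), a call that was lost in 7 of 10 fits without 1 library (each WT PRO library, WT DIFF 2 or 3 and each p27KO DIFF library). Peaks in every PRO library were enough for region 34 to be tested, which favours a fall. The strongest Nfia region was region 56 (chr4:98003756-98004768), 124.2 kb past the inner start site, at a mean percentile of 97.2 and with no call.

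At Nfic, 2 intron regions rose in both genotypes. Region 29 (chr10:81435364-81435791) had 3.33, 24.1 and 13.4 in WT PRO and 57.4, 47.0 and 62.5 in WT DIFF. In p27KO it had 25.7 and 34.1 in PRO and 54.8 and 60.6 in DIFF. No groups overlapped, and the rise was 1.20 ± 0.19 (SE), adjusted p = 0.00148 in WT, called under all 19 alternatives, and 1.03 ± 0.24 (SE), adjusted p = 0.0161 in p27KO. Region 22 (chr10:81414775-81415010) had no peak, 3.87 and 6.82 in WT PRO and 24.7, 33.9 and 36.5 in WT DIFF, against no peak in p27KO PRO and 41.8 and 50.8 in p27KO DIFF. Its rise was 1.00 ± 0.22 (SE), adjusted p = 0.00784 in WT, lost without WT PRO replicate 1 (adjusted p = 0.0558), and 1.74 ± 0.26 (SE), adjusted p = 0.00191 in p27KO, called under all 18 alternatives that tested it. Peaks in every DIFF library were enough for region 22 to be tested, which favours a rise, and the alternatives do not remove this.

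Outside the Nfic body, other genes were nearer. Region 41 (chr10:81526699-81527213), 2776 bp from the start of Gna15, a G protein subunit gene, had 47.3, 56.5 and 61.3 in WT PRO and no peak, no peak and 34.3 in WT DIFF, and 52.1 and 49.2 in p27KO PRO against no peak in p27KO DIFF. The single DIFF peak came from the long list of WT DIFF replicate 3. Its fall was −0.98 ± 0.19 (SE), adjusted p = 0.00477 in WT, called under all 18 alternatives that tested it, and −1.10 ± 0.24 (SE), adjusted p = 0.0121 in p27KO, lost without p27KO PRO replicate 2 or either p27KO DIFF library. Its peaks in every PRO library were enough for it to be tested, which favours a fall, and the alternatives do not remove this. Region 14 (chr10:81383982-81384883), at the start of Dohh, had 88.5, 90.2 and 89.8 in WT PRO and 94.9, 98.4 and 96.4 in WT DIFF (0.67 ± 0.19 (SE), adjusted p = 0.03), a call lost when any of the WT PRO libraries or WT DIFF replicate 2 was left out, and when ranked by −log10 p-value (adjusted p = 0.123). The strongest region of the window, region 37, was the promoter of Ncln at a mean percentile of 96.0, with no call.

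At Nfix, all 6 regions called in WT were higher at DIFF, 2 of them with peaks at DIFF alone. Region 31 (chr8:84788805-84789198), in an intron 10.9 kb past a start site, opened in both genotypes. No PRO library had a peak, and the percentiles were 14.5, 7.45 and 36.7 in WT DIFF and 21.8 and 41.3 in p27KO DIFF. The change was 1.11 ± 0.17 (SE) in WT and 1.43 ± 0.21 (SE) in p27KO, given as a description, since with 5 peaks this region too passed the filter through DIFF alone. Region 35 (chr8:84809321-84809777), 9.4 kb before the first start site, had no peak at PRO and low ones at DIFF, with 25.8, 7.53 and 7.54 in WT and 14.6 and 0.7 in p27KO. It passed the filter in the same way, and its change was 0.96 ± 0.25 (SE) in WT.

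In WT, the largest Nfix rise was far from the gene. Region 2 (chr8:84650501-84651018), between genes and 12213 bp from the start of Ier2, had no peak, 29.8 and no peak in WT PRO and 49.6, 21.8 and 56.5 in WT DIFF, which overlapped, and 1 peak among the 4 p27KO libraries. The change was 1.23 ± 0.31 (SE), adjusted p = 0.0159 in WT, lost without WT PRO replicate 1 or 3. Region 2 had 5 peaks, the fewest a tested region can have, and all but 1 were at DIFF. It thus passed the filter mainly through DIFF, which favours a rise, and the alternatives do not remove this. The other 3 were region 32 (0.60 ± 0.18 (SE), adjusted p = 0.0402) and region 16 (0.55 ± 0.16 (SE), adjusted p = 0.0338), both in introns of Nfix, and region 4 (0.68 ± 0.17 (SE), adjusted p = 0.0165), at the start of Ier2, an immediate early gene. The WT groups did not overlap at any of the 3. At region 4 the percentiles were 34.9, 35.3 and 36.5 in WT PRO and 51.9, 53.1 and 60.9 in WT DIFF, but 55.3 and 50.8 in p27KO PRO and 51.7 and 45.1 in p27KO DIFF. The p27KO change in normal scores was 0.16 ± 0.21 (SE), adjusted p = 0.68 while the percentiles in the whole list were lower at DIFF. Scores rank the tested regions, with missing peaks lowest, and the p27KO DIFF lists were shorter (67589 and 73220 peaks, against 91801 and 83854 at PRO). What sets the 2 scales apart here was not tested. The difference between the genotypes' changes was −0.51 ± 0.27 (SE), adjusted p = 1 (limma). The strongest region of the window, region 46, was the promoter of Gcdh at a mean percentile of 98.3, with no call.

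**Figure D3:**
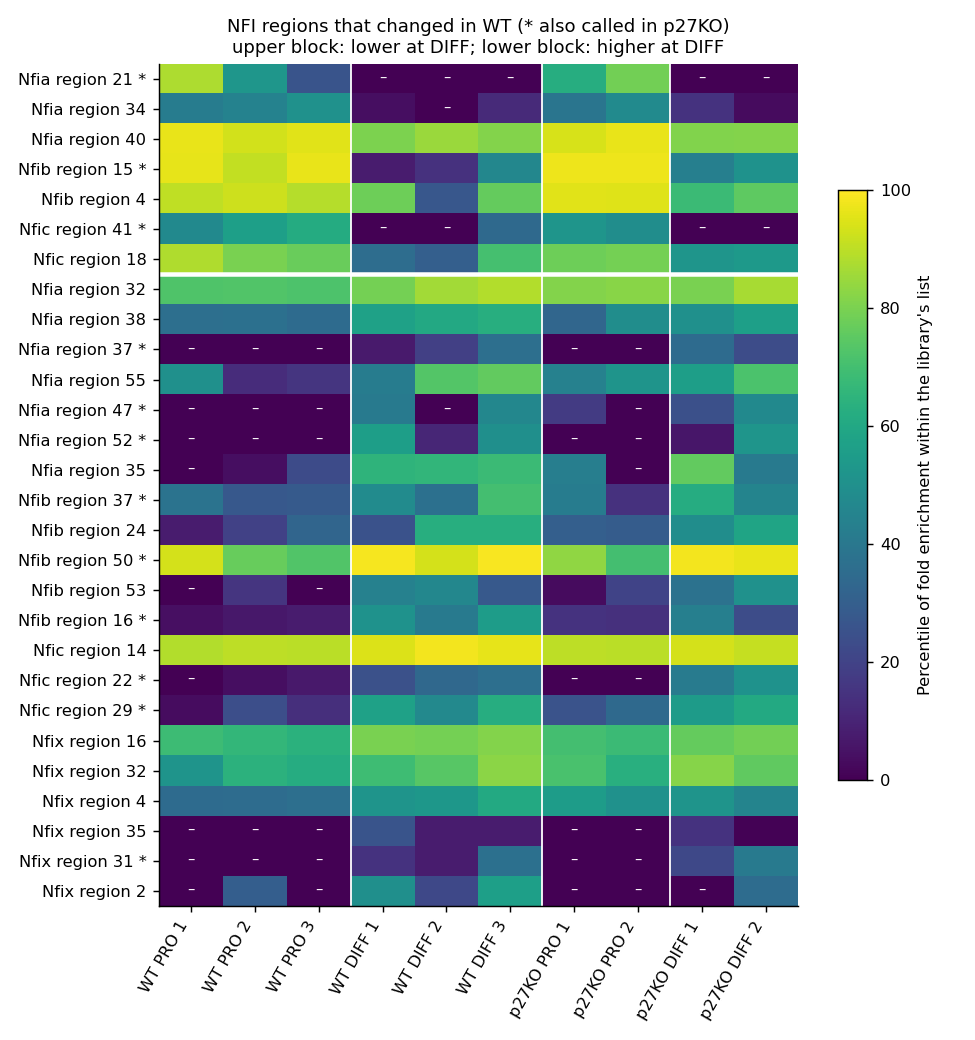
Percentile of fold enrichment within the library's list (colour, 0 to 100) of the 28 NFI regions called in WT (rows) in each of the 10 libraries (columns); a dash marks a library without a peak, drawn at 0, and an asterisk a region also called in p27KO. The 7 regions of the upper block are darker at DIFF, the 21 of the lower block brighter, and most p27KO columns run in the same direction, with region 4 of Nfix an exception.

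Without p27, fewer NFI regions were called, and all of them were among those called in WT. In p27KO 9 NFI regions were higher and 3 lower at DIFF (6.87% and 2.29%), where all tested regions gave 5.83% and 6.48%. Away from coding start sites it was 9 and 2 of 83 (10.8% and 2.41%), against 7.1% and 8.1%. With a peak in all 10 libraries it was 4 and 1 of 80 (5.0% and 1.25%), against 2.84% and 2.95%. Of these 12 calls, 4 (regions 21, 37 and 52 of Nfia and 31 of Nfix) were in regions with peaks in 1 condition alone. All 12 regions called in p27KO were also called in WT in the same direction, and all 28 called in WT had the same sign in p27KO on the normal-score scale. These shares were not counted over all regions, where the difference between the genotypes' changes was called at 0 of 70627. The WT and p27KO comparisons share no library, but they share 1 estimate of the spread. With 2 libraries per condition the count was less firm than in WT, and without 1 library it ranged from 1 (without p27KO DIFF replicate 1) to 8 higher and from 1 (without p27KO PRO replicate 2 or either p27KO DIFF library) to 3 lower.

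No difference between the genotypes was called at any NFI region. The interaction, the p27KO change minus the WT change, called 0 of 131 with limma (lowest adjusted p 1.0, and 2 at an unadjusted p below 0.05), where all 70627 regions also gave 0 (0.0%). At region 15 of Nfib it was 0.14 ± 0.30 (SE), with a 95% interval of −0.52 to 0.79. At region 22 of Nfic it was 0.74 ± 0.34 (SE), with an interval of −0.01 to 1.49. These intervals leave room for differences as large as many of the changes themselves. Between p27KO and WT at PRO, limma called 0 of 131 (lowest adjusted p 0.763, 5 at an unadjusted p below 0.05), against 0.034% of all regions. At DIFF it called 0 of 131 (lowest adjusted p 0.995, 0 at an unadjusted p below 0.05), against 0.0156%.

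**Figure D4:**
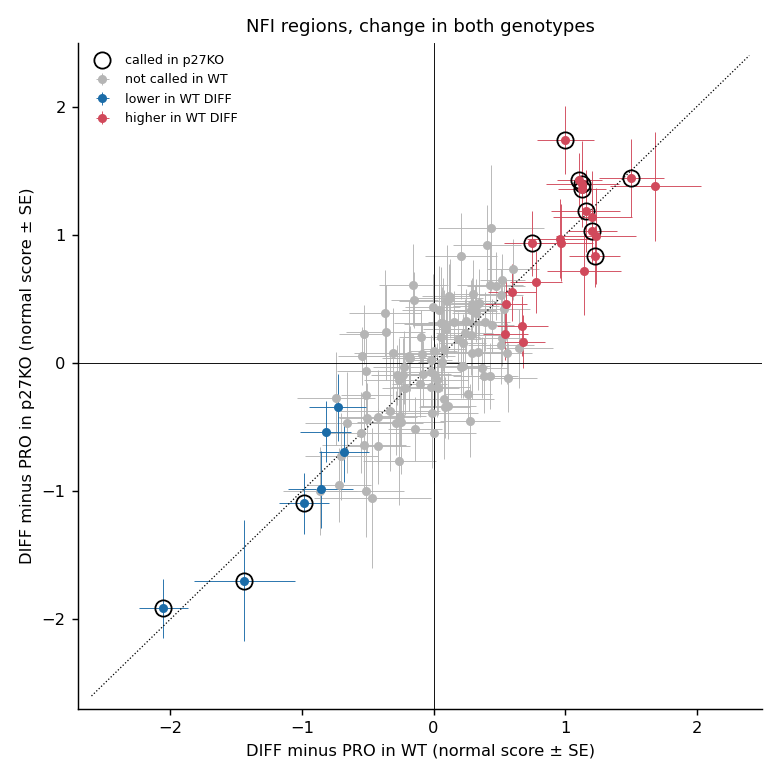
DIFF minus PRO change of the normal score in WT (x axis) and in p27KO (y axis) for the 131 NFI regions tested, points with SE; red and blue regions were higher and lower at DIFF in WT, rings mark those called in p27KO, and the dotted line marks equal change. The 28 coloured points have the same sign on both axes, a share that was not counted for all regions.

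Presence was also counted alone, without ranks. A region counted as closed in a genotype when every PRO and no DIFF library had a peak, and as opened in the opposite case. In WT 4 of the 174 NFI regions closed and 4 opened (2.3% each), against 4.32% and 1.86% of all regions in at least 2 libraries. In p27KO 17 closed and 5 opened (9.77% and 2.87%), against 10.9% and 3.32%. These shares were near those of all regions except for closing in WT, where the NFI share was lower and rests on 4 regions. Whether it differs was not tested. With lists cut to equal length, 6 regions closed and 8 opened in p27KO. The shares over all regions were not counted at equal length, so these 2 counts say nothing particular of NFI regions. Regions 21 and 45 of Nfia and region 3 of Nfix closed in both genotypes, and regions 37 and 52 of Nfia and 31 and 35 of Nfix opened in both.

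The number of peaks in a gene's window, taken per 10000 peaks of the list, showed no change that passed the test. At Nfix it was 3.87, 4.35 and 4.19 in WT PRO and 5.18, 4.87 and 4.28 in WT DIFF, against 3.7 and 4.05 in p27KO PRO and 4.59 and 4.1 in p27KO DIFF. DIFF libraries were thus higher on average in both genotypes, with overlap in WT. The DIFF minus PRO difference of 0.551 had p = 0.05 in an exact permutation test within genotype (two-sided, 0.32 after Benjamini-Hochberg adjustment over 8 tests). The smallest p that test allows is 0.0167. For Nfia, Nfib and Nfic the difference was −0.0713, 0.0131 and −0.112 (exact permutation p = 0.767, 0.917 and 0.6). Between p27KO and WT it was −0.383, −0.289, 0.107 and −0.346 for Nfia, Nfib, Nfic and Nfix (exact permutation p = 0.14, 0.14, 0.69 and 0.16, with 0.01 as the smallest possible).

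**Figure D5:**
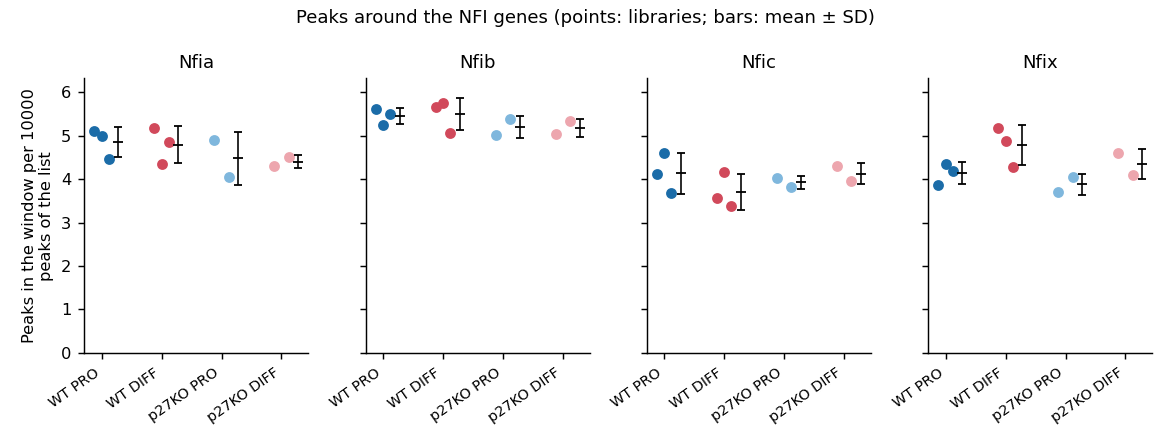
Peaks in the window of each NFI gene per 10000 peaks of the library's list (y axis, from 0) by group (x axis); points are libraries and bars are mean ± SD (3 WT and 2 p27KO libraries per condition). The groups of every gene lie between 3.38 and 5.74 and overlap between conditions or genotypes.

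Sequence features of the NFI regions were counted in 300-base windows centred on the summits, on both strands. The single NFI site TTGGCA was in 36 of 131 windows (27.5%), against 23.4% of the 70509 tested regions on the numbered and sex chromosomes. The 4 genes were unlike in this, with 19 of 37 windows at Nfib (51.4%), 7 of 32 at Nfia (21.9%), 7 of 32 at Nfix (21.9%) and 3 of 30 at Nfic (10.0%). The share in all regions over 3 kb from a coding start site was 26.7%. The full palindrome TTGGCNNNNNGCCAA, which can hold the single site, was in 0 of 131 windows and in 0.129% of all. The AP-1 letters TGANTCA were in 11 of 131 windows (8.4%, against 10.8% of all). They were in 4 of the 7 NFI regions that fell in WT (Nfia regions 21 and 40, Nfib region 15 and Nfic region 18) and in 1 of the 21 that rose. Over all regions the letters were in 28.2% of those that fell and 6.95% of those that rose. ACAATG was in 16 windows (12.2%, against 15.4%), CAGCTG in 31 (23.7%, against 26.7%) and GGAATG in 15 (11.5%, against 18.9%). With 7 and 21 regions these shares are counts of letters and no more.

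Genes that act with NFI factors, a list drawn up with earlier results of these data known, were read at their promoters. Of 4 upstream or partner genes (Sox9, Pou3f2, Notch1 and Rbpj), 0 changed in either genotype. Of 13 reported targets, 2 were higher and 0 lower in WT, and 1 was higher and 0 lower in p27KO, out of all 13 tested in each. Over all tested regions 9.15% were higher and 10.1% lower in WT, and 5.83% and 6.48% in p27KO. Near coding start sites the shares were lower than these. Of the regions called in WT, 5747 of 6464 higher and 6573 of 7104 lower lay over 3 kb away, against 52863 of the 70627 tested. In p27KO it was 3751 of 4115 and 4282 of 4580. Insc fell most among the targets and was not called, with −0.53 ± 0.22 (SE), adjusted p = 0.115 in WT and −0.51 ± 0.27 (SE), adjusted p = 0.262 in p27KO (limma). Mmd2, which Nfia and Sox9 are known to switch on in early glial precursors, had 5.71, 26.0 and 15.4 in WT PRO and 16.6, 41.1 and 63.5 in WT DIFF, and 32.9 and 22.1 in p27KO PRO against 46.9 and 57.2 in p27KO DIFF. It rose in both, by 0.87 ± 0.21 (SE), adjusted p = 0.0137 in WT and 0.95 ± 0.26 (SE), adjusted p = 0.0337 in p27KO (limma). Gfap, the astrocyte filament gene, had 70.7, 71.4 and 78.2 in WT PRO and 84.8, 80.5 and 93.3 in WT DIFF, a rise of 0.62 ± 0.18 (SE), adjusted p = 0.0362, and a change of 0.24 ± 0.22 (SE), adjusted p = 0.552 in p27KO. The median change of the 13 targets was 0.24 in each genotype and that of the 4 upstream or partner genes 0.23 in WT and 0.16 in p27KO. Over all 17764 tested regions within 3 kb of a coding start site it was 0.11 and 0.13. Whether the targets differ from other promoters was not tested. No cause of these changes was tested.

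The promoters elsewhere that ran most like the main NFI start-site regions over the 10 libraries were ranked by Pearson's r of the normal scores among 14932 promoters. For region 12 of Nfia they were Dnajb1, Elavl2 and Adam12 (r = 0.949, 0.942 and 0.94), and for region 26 of Nfib Vim, Morc3 and Adhfe1 (0.977, 0.973 and 0.971). For region 18 of Nfic they were Abcc8, Camk1d and Thegl (0.968, 0.965 and 0.957), and for region 28 of Nfix Kcna10, Zfp219 and Cpeb4 (0.951, 0.914 and 0.902). The points share libraries and their depth, and the values are a description only.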

How the data were processed

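ATAC-seq was done on 10 cultures of adult mouse NSC, WT and p27KO, at PRO and DIFF. According to their methods, the authors clipped adapters (Cutadapt, Trimmomatic), mapped reads to GRCm38 with Bowtie2, flagged duplicates (Picard) and ran MACS2 in narrow mode, with its model off, on each library by itself. Tool versions and the shift for the transposase's cut were not given in the sources used here, and a missing shift would move summits by a few bases. The deposited lists hold for each peak the fold enrichment, a ratio that the authors' caller took over the local background, with the −log10 p-value, the −log10 q-value and a score derived from it in the authors' lists. They hold no read counts, so the depth of each library is unknown here and the number of peaks per list limits the precision.

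Peaks of the 10 lists that overlapped by at least 1 bp were merged. In each library the highest fold enrichment of a region was ranked among those regions that had peaks in 5 or more libraries (no peak ranked lowest, tied), the rank was turned into a normal score, and limma 3.58.1 (R 4.3.3) was fitted with 1 mean per group over all 10 libraries, two-sided, with Benjamini-Hochberg adjustment over 70627 regions at 0.05. The limma fit was tried on simulated normal scores, which left out the ranking, the missing peaks and the list lengths. Peaks per 10000 of the list were compared by exact permutation tests. Gene models were those of GENCODE M21 (GRCm38).

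Named regions were those nearest to each coding start site, up to 3 per gene and direction with the largest called change in WT, 1 in p27KO, the strongest region per gene, and any region called between genotypes (0 were). Regions 37 of Nfia, 16 of Nfib in p27KO, 45 of Nfia, 3, 4, 16 and 32 of Nfix and 29 of Nfic in p27KO were named after their values were seen. The members and lists were chosen with earlier results of these data known. Alternatives were another ranking measure, other filters, equal list length, a −log10 q-value of at least 5, regions built from summits, only the groups compared, a replicate block, narrower windows and each library left out. Replicate numbers did not pair the WT libraries (correlation of deviations 0.033 to 0.065).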

Additional observations from a re-analysis of the deposited data

How the results depend on the processing

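Of 26 calls on named regions, 7 were in regions with peaks in 1 condition alone, whose calls say nothing of stability. Of the other 19, 7 were made in every alternative that tested them and 12 were lost when some library was left out. No value on a named region that had been called changed sign. The NFI regions called in WT numbered 12 higher when ranking and fit were limited to regions with a peak in all 10 libraries. In p27KO they numbered 5 lower when ranked by −log10 p-value, 1 lower and 3 higher under that same limit, and 1 lower with the stricter q-value. By presence, lists of equal length gave 8 opened in WT and 6 closed and 8 opened in p27KO, and the stricter q-value gave 2 opened in WT and 11 closed and 2 opened in p27KO. Without 1 library, the WT counts ranged from 2 to 7 lower and 7 to 18 higher, the p27KO counts from 1 to 3 lower and 1 to 8 higher, closed regions from 4 to 10 in WT and 17 to 26 in p27KO, and opened regions from 4 to 8 in WT and 5 to 10 in p27KO. Closed and opened shares over all regions were not counted under these alternatives, so these presence counts say nothing particular of NFI regions. A region with 5 peaks drops out of testing when a library with one of them is left out, and the cause of the other losses was not tested. The genotype and interaction comparisons gave 0 calls on NFI regions throughout.

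With the replicate number as a block, 7 regions were lower and 19 higher in WT, and 3 lower and 9 higher in p27KO. The numbers did not pair the samples. In p27KO the deviations of same-numbered libraries correlated at −0.141, and the crossed pairing, added after the data were seen, gave 7 lower and 19 higher in WT and 4 lower and 8 higher in p27KO.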
